A study of Mus musculus with 30 samples.

Results

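The cytosolic ribosomal protein genes encode the protein part of the ribosome that translates nuclear messages. They were taken as all protein-coding genes of the GRCm38 table whose symbol is Rpl or Rps followed by a number, with an optional a, x or y, together with Rplp0, Rplp1, Rplp2 and Rpsa. The choice by name gave 76 of 21631 protein-coding genes (chromosomes 1 to 19 and X), of which 46 belong to the large (60S) and 30 to the small (40S) subunit. Chromatin immunoprecipitation with sequencing (ChIP-seq) had been done in C57BL/6 mouse cells, cultured in vitro in stem cell factor conditioned medium, before and after a commitment to myeloid differentiation. The ER-Hoxa9-Lys-GFP cells carry HOXA9, a homeodomain factor of blood progenitors, fused to the part of the estrogen receptor that binds hormone, so that its activity follows estradiol (E2). H3K4me3, a histone mark of active promoters, was mapped in these cells with E2 kept in, after 24, 40 or 72 h of E2 withdrawal followed by 96, 80 or 48 h back in E2, and after 120 h of withdrawal with none restored. A longer withdrawal therefore came with a shorter time back in E2, and the effects of the 2 durations cannot be told apart. Sites of tagged HOXA9 were mapped with ChIPs titled V5 and AM in cells with V5-Hoxa9-AM, untreated, and in cells with its estrogen receptor fusion V5-ER-Hoxa9-AM, kept in E2 or, for V5, after 72 h of withdrawal and 48 h back in E2. The antibody label of both AM libraries reads V5. The H3K4me3 ChIPs took 500 ug of chromatin each and the V5 and AM ChIPs 30 ug. There was 1 library for each condition, so every value below compares libraries, with no replicate error and no test.

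A ribosome holds a single copy of nearly every ribosomal protein, and their genes are transcribed at high rates in growing cells from promoters rich in CpG. In mammals their transcripts typically begin with a cytosine followed by a run of pyrimidines, the terminal oligopyrimidine (TOP) sequence, through which growth signalling by mTOR controls their translation. Many host small nucleolar RNAs (snoRNAs) in their introns, and processed pseudogene copies of them are scattered through mammalian genomes. H3K4me3 at an active gene usually lies on the nucleosomes that flank the start and extends further downstream than upstream.

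Promoter sequences were available for 56 members, with 66 starts (RefSeq, GRCm38.p6). The 7 below run from 80 bases before the start to 20 bases from it, 5′ to 3′ on the gene's strand. Capitals mark the longest pyrimidine run that touches the start or the 10 bases on either side of it, and any CCGGAAG (the core letters of an ETS factor site) or AAGATGG (letters of the YY1 motif) on either strand. Rps4x (chrX:102189372-102189471, minus strand), Rpl6 (chr5:121204421-121204520, plus) and Rpl23 (chr11:97782420-97782519, minus) are shown as members whose second kilobase downstream of the start held H3K4me3 in E2 and none at 120 h. Rps9 (chr7:3703961-3704060, plus) kept its mark there. Rpl5 (chr5:107900448-107900547, plus) and Rpl9 (chr5:65391412-65391511, minus) are the members whose start lay in both a V5 and an AM site. Rpl27a (chr7:109519115-109519214, plus) shows a long pyrimidine run.
Rps4x: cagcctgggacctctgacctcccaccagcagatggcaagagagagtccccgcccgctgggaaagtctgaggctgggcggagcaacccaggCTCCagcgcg
Rpl6: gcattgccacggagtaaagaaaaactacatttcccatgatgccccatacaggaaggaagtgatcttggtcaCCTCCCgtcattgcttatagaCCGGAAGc
Rpl23: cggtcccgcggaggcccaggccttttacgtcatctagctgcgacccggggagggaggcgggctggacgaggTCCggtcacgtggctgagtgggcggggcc
Rps9: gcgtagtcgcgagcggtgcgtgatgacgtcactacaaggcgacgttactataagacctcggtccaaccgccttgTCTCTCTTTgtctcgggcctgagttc
Rpl5: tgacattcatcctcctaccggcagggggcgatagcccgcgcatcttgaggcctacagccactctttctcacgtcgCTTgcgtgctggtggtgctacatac
Rpl9: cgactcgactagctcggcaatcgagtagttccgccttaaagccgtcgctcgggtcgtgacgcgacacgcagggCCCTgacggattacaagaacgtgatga
Rpl27a: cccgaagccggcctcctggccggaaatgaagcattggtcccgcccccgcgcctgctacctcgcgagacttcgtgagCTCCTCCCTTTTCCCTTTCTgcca

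Member promoters held pyrimidine-rich starts and CCGGAAG in larger shares than promoters at large. A run of at least 8 pyrimidines touched that stretch in 28 of 66 member promoters (42.4%) and in 14.1% of all 21045 promoters of the table. The run was 20 bases long in Rpl27a, 9 in Rps9 and 4 in Rps4x, and the longest, in Rpl7a, had 21 bases. A cytosine exactly at the annotated start with 4 further pyrimidines was found in 13 member promoters (19.7%), among them Rpl15, Rpl38, Rps6 and Rps15a, against 2.23% of all promoters. CCGGAAG, searched on both strands over 250 bases before and 50 bases from the start, was present in 36.4% of member promoters, in 11.7% of all and in 19.6% of the promoters of genes with H3K4me3 in E2. AAGATGG on both strands was present in 16.7%, 6.28% and 7.42% of the same sets. CTTTT and CTTCC on the gene's strand in the 50 bases from the start, short pyrimidine words, were present in 15.2% and 27.3% of member promoters, against 4.49% and 9.84% of all. TATAAA on the gene's strand was present in 7.58% of member promoters (5 of 66), in 8.29% of all and in 3.93% of those of genes with H3K4me3 in E2. TGATTTA on both strands, letters within a HOX and PBX site, was present in 3.03% (2 of 66), 2.59% and 1.51% of the same sets. The members' median of 21 CpG equalled that of genes with H3K4me3 in E2 (21) and lay above that of all promoters (13).

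The lists held 17497 to 23835 H3K4me3 peaks on chromosomes 1 to 19 and X, and covered 10.4 Mb in E2, 14.2 Mb at 24 h, 14.9 Mb at 40 h, 16.0 Mb at 72 h and 17.3 Mb at 120 h. They give coordinates and no height, so the covered length depends on how much was called in each library. Read depth is unknown. Of 12 neutrophil maturation markers, 0 had H3K4me3 in E2, 3 had it at 72 h and 11 at 120 h (Camp, a granule protein gene, was at 0 in every list), and their summed covered length was 0 bp in E2, 2961 bp at 72 h and 31791 bp at 120 h. Of 12 myeloid progenitor markers 10 were marked in E2 and 11 at 120 h, with summed lengths of 35569 bp and 29480 bp. These genes went both ways from E2 to 120 h. Shorter were 6, among them Mpo (5894 to 1270 bp), and longer were 5, among them Spi1 (2339 to 5463 bp). Elane was at 0 in all lists. Erythroid and megakaryocyte markers summed to 927 bp and 2480 bp (8 genes), lymphoid markers to 3358 bp and 1595 bp (10 genes), and fibroblast and epithelial markers to 0 bp and 590 bp (8 genes). The lymphoid sum in E2 came from Ebf1 alone, which had 987 bp at 120 h. In such bulk samples a shorter mark in every cell and a mark lost in some cells cannot be told apart. The part of these shifts in the results on ribosomal protein genes was not tested.

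In cells kept in E2 the ribosomal protein genes carried long H3K4me3 domains. All 76 members had a peak within the gene or 1 kb on either side in E2, where 47.1% of all genes did. All 76 were also marked at 24, 40, 72 and 120 h, where the shares of all genes were 50.7%, 50.5%, 51.4% and 53.2%. The H3K4me3-covered length in that window had a median of 1565.5 bp over the members in E2 (quartiles 1269 and 1861 bp) and of 977 bp over all genes with a peak. The median member stood at percentile 81.2 of the marked genes, and 69 of 76 members lay above the middle of that ranking. The members' genes are short, with a median of 3169.5 bp against 17329 bp for all genes.

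Rpl18, a 60S protein gene at chr7:45715467-45720835, had the most covered length in E2, with 3425 bp, then 4052, 4106 and 4072 bp in the restored lists (24, 40 and 72 h) and 4059 bp at 120 h. Its window also holds Fam83e and Sphk2, and it was the only one of the 5 longest members in E2 that was longer at 120 h than in E2. Rps15a, Rpl3, Rpl23 and Rpl27a followed in E2 with 2831, 2630, 2506 and 2447 bp. Rpl36a (chrX:134585654-134588062) had the least, with 553 bp in E2, 1080, 1274 and 1055 bp in the restored lists (24, 40 and 72 h) and 822 bp at 120 h. Next above it in E2 were Rpl7 with 800 bp, Rps23 with 822 bp, Rpl19 with 826 bp and Rpl27 with 851 bp. Without replicates the order of members that are neighbours in this ranking cannot be stated. The windows of 29 members (38.2%) also touch another protein-coding gene, against 32.0% of all genes and 45.5% of genes with H3K4me3 in E2. Named pseudogenes exist for 62 members (315 in all), and were not counted for other genes. How reads that match several copies were treated is not given in the sources used here.

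SnoRNA genes lay inside 29 of the 76 members (38.2%), 58 in all, against 1.72% of all genes and 2.53% of genes with H3K4me3 in E2. The members lie on 19 chromosomes, with 14 of them on chromosome 7.

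**Figure D1:**
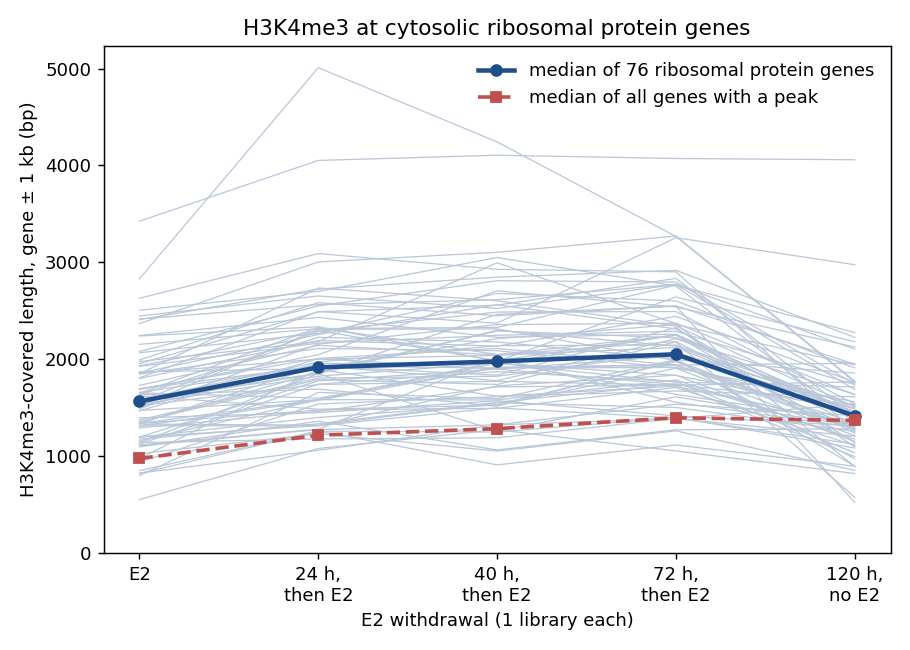
H3K4me3-covered length (bp) in the gene and 1 kb on either side, in each of the 5 lists. Thin lines are the 76 ribosomal protein genes, the blue line is their median and the red dashed line the median of all genes with a peak. The members' median runs from 1565.5 bp in E2 to 2052 bp at 72 h and 1416.5 bp at 120 h, beside 1370 bp for all genes at that time.

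After withdrawal and return to E2 the mark was longer at most ribosomal protein genes, as at most genes. In the median the gain was smaller than over all genes and larger than over other genes of like E2 length. The members' medians in the lists of 24, 40 and 72 h were 1917, 1978.5 and 2052 bp, against 1217, 1285 and 1396.5 bp for all marked genes. Of the 76 members 72 were longer than in E2 at 24 h, 71 at 40 h and 76 at 72 h, where 83.3%, 88.7% and 93.4% of all genes were. Shorter than in E2 were 3, 5 and 0 members, against 16.6%, 11.2% and 6.5% of all genes. The median log2 ratio over E2, with 50 bp added to each length, was 0.24, 0.35 and 0.35 over the members, and 0.35, 0.40 and 0.54 over all genes. Over the 2223 other genes whose E2 length lay within the members' quartiles it was 0.17, 0.25 and 0.32. Wider past 1.5-fold were 9 members at 24 h (all genes 33.1%), 16 at 40 h (35.9%) and 16 at 72 h (46.8%), and narrower past 1.5-fold were 0 members in each, against 1.96%, 1.46% and 1.54% of all genes. With ratios centred on the median of all genes, 1 member was wider at each of the 3 times, and the share of all genes was not computed. The median percentile stayed between 81.0 and 82.7.

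Rpl7, which encodes a 60S protein, was furthest above E2 at 72 h. Its 800 bp in E2 (chr1:16101295-16104433) became 1659, 1594 and 1997 bp in the restored lists (24, 40 and 72 h) and 1858 bp at 120 h, a log2 ratio of 1.27 at 72 h. Rpl36a and Rpl19 followed at 72 h with log2 ratios of 0.87 and 0.86. Rpl21 and Rps28 were among those nearest to E2 at 72 h, with log2 ratios of 0.02 and 0.05. Rps15a had the longest value of any member in any list, with 2831 bp in E2, 5009, 4243 and 3268 bp in the restored lists (24, 40 and 72 h) and 1766 bp at 120 h.

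At 120 h without E2 the members' lengths lay about level with those in E2, while those of most genes were longer than in E2. The members' median was 1416.5 bp, that of all marked genes was 1370 bp, and the median percentile of the members was 52.7, with 41 of 76 above the middle of the ranking. Shorter than in E2 by any amount were 47 of 76 members (61.8%), against 14.7% of all genes, and 29 were longer, against 85.2%. The median log2 ratio over E2 was -0.09 for the members (quartiles -0.31 and 0.15) and 0.59 for all genes. Narrower past 1.5-fold were 9 members (11.8%), against 2.29% of all genes, and wider were 4 (5.26%), against 50.5%. Centred on the median of all genes, 47 were narrower and 0 wider. That median (0.59) nearly equals the log2 of 1.5-fold (0.585), so the centred cut for narrower falls close to equal length with E2. Shares of all genes were not computed for centred ratios. The 2 subunits had like medians. The median log2 ratio was -0.11 over the 46 members of the 60S subunit and -0.07 over the 30 of the 40S subunit.

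Set against the restored 72 h list the step to 120 h was larger. Shorter at 120 h than at 72 h were 72 of 76 members (94.7%), against 49.2% of all genes, and 4 were longer, against 50.8%. The median log2 ratio was -0.45 over the members and 0.01 over all genes. Narrower past 1.5-fold were 31 members (40.8%; all genes 7.13%), and wider were 0 (all genes 16%). The 4 longer members were Rpl41, Rpl7a, Rps20 and Rps29. The 120 h list gave the shortest of the 5 lengths in 46 members (60.5%), against 12.8% of the genes marked in all lists, and E2 gave it in 28, against 67.2%. The lists of 24, 40 and 72 h gave it in 0, 2 and 0 members, against 11.6%, 5.88% and 2.35%. The longest length was at 72 h in 39 members (31.7% of those genes), at 40 h in 21 (18.2%), at 24 h in 15 (10.4%), at 120 h in 1, Rps29 (38.5%), and in E2 in 0 (1.02%). All 3 restored lists were longer than E2 in 68 members (75.1%), longer than 120 h in 61 (26.4%) and longer than both in 55 (21.5%). The restored lists enter both the comparison with E2 and that with 120 h, so these counts are not independent of one another.

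The ratio at 120 h was set beside the length in E2, since the members were long in E2. Across the 76 members the length in E2 and the log2 ratio at 120 h had a Spearman rho of -0.56, and across the 10188 genes with a peak in E2 it was -0.51. Both share the E2 length as 1 of their terms, and genes are not replicates. The 2223 other genes whose E2 length lay within the members' quartiles had a median log2 ratio of 0.22 at 120 h, with 1.66% narrower and 21.5% wider past 1.5-fold. By any amount 25.1% of them were shorter than in E2. Among the 2223, the 579 genes no longer than the longest member (11774 bp) had a median of 0.20 and 2.42% narrower. At 72 h the first set had a median of 0.32, close to the members' 0.35.

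**Figure D2:**
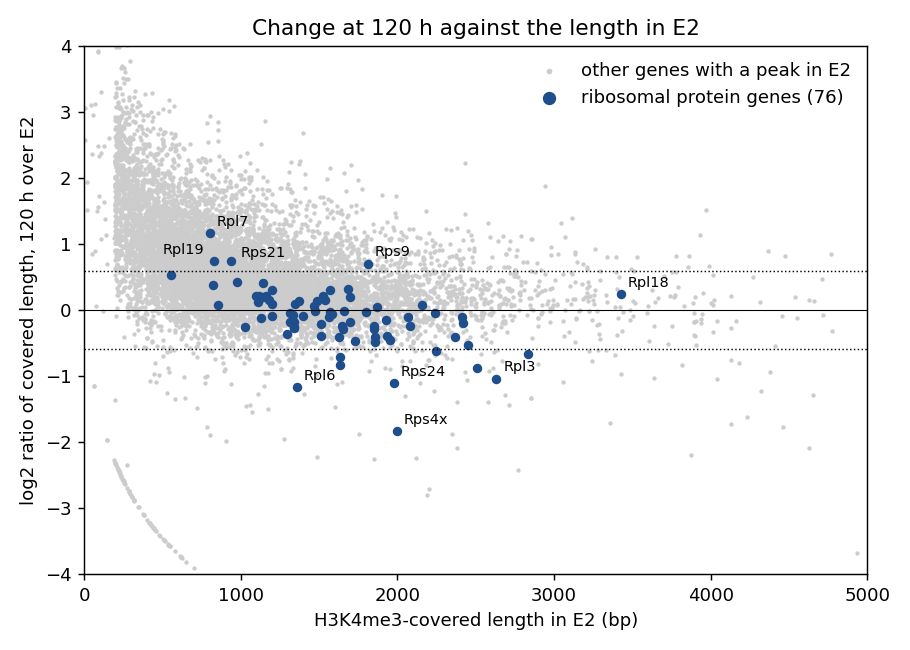
Log2 ratio of H3K4me3-covered length at 120 h over E2 (vertical axis) against covered length in E2 in bp (horizontal axis), for the 76 ribosomal protein genes (blue) and 10068 other genes with a peak in E2 (grey). The axes leave out 44 other genes, and dotted lines mark 1.5-fold. The members, Rps4x lowest and Rpl7 highest, lie mostly at or below 0 at lengths where other genes lie mostly above it.

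The shorter lengths at 120 h went with less coverage in the second kilobase downstream of the start. This stretch was measured in the 48 members with a single start in the promoter table, with all 7135 genes of that kind that had a peak within 2000 bp of the start in any list. The members' mean covered length in the second kilobase was 508 bp in E2, 664, 723 and 721 bp in the restored lists (24, 40 and 72 h) and 188 bp at 120 h. All genes had means of 140, 191, 216, 207 and 170 bp. At 120 h this stretch was shorter than in E2 in 43 of 48 members and longer in 4, where 22.2% of all genes were shorter and 25.2% longer. It was uncovered in 1 member in E2 and in 14 at 120 h, and more than 500 bp of it were covered in 24 members in E2, 35 at 72 h and 3 at 120 h. The 3 were Rpl41, Rps3 and Rps9. Such counts were not made over all genes, whose median in this stretch was 0 bp in E2, at 72 h and at 120 h. In the shortest members this stretch runs past the end of the gene. Rpl41 is 1059 bp long, so most of its stretch lies outside it, and its window also touches Zc3h10.

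Nearer the start the means were higher at 120 h than in E2, in members and in all genes. The first kilobase downstream had a mean of 795 bp covered in E2 and 857 bp at 120 h over the members, and of 514 and 730 bp over all genes. The kilobase upstream had means of 266 and 396 bp over the members and of 218 and 400 bp over all genes. The point 1500 bp downstream lay in a peak in 45.8% of members in E2, 72.9% at 72 h and 6.25% at 120 h. Over genes with a peak near the start the shares were 13.1%, 18.5% and 14.8%. The start itself was seldom covered in members, in 6.25% in E2, 18.8% at 72 h and 27.1% at 120 h, and over all such genes in 15.1%, 40.1% and 63.8%. Among 801 other genes with 315 to 717 bp covered in the second kilobase in E2, the quartiles of the members, the means in E2 and at 120 h were 481 and 434 bp, and 57.7% were shorter.

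**Figure D3:**
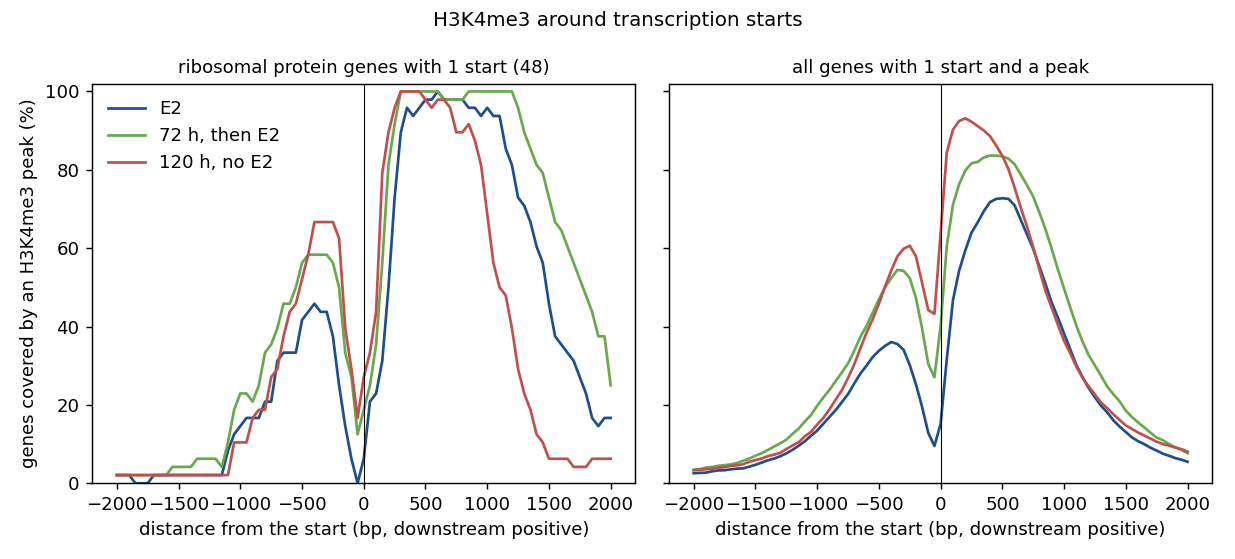
Share of genes (%) whose position at each distance from the annotated start (bp, downstream positive) lies in an H3K4me3 peak, for E2, 72 h then E2, and 120 h without E2. In the 48 ribosomal protein genes (left) the share 1500 bp downstream is 45.8% in E2, 72.9% at 72 h and 6.25% at 120 h. Over all genes with a peak (right) the shares of E2 and 120 h lie close together at that distance and apart nearer the start.

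Among 60S members the lowest ratios at 120 h were those of Rpl6, Rpl3, Rpl23 and Rpl23a. Rpl6 (chr5:121204501-121209241) had 1356 bp in E2, 1791, 1741 and 2179 bp in the restored lists (24, 40 and 72 h) and 577 bp at 120 h, a log2 ratio of -1.17 at 120 h over E2. Its second kilobase went from 596 bp covered in E2 and 980 bp at 72 h to 0 bp at 120 h. Rpl3 (chr15:80077781-80083406), a core protein near the peptidyl transferase centre, had 2630, 3091, 2929, 2903 and 1254 bp (here and below in the order E2, 24, 40, 72 and 120 h), a log2 ratio of -1.04. It hosts 3 snoRNA genes. Rpl23 (chr11:97777526-97782439), one of the proteins that bind MDM2, had 2506 bp in E2, 2701, 3050 and 2757 bp in the restored lists (24, 40 and 72 h) and 1349 bp at 120 h (log2 -0.87). Its second kilobase was covered in full in E2 and at 72 h and not at all at 120 h. Rpl23a (chr11:78180935-78183584), at the peptide exit tunnel, had 1634, 2227, 2179, 2004 and 897 bp (log2 -0.83), or -0.49 with a window of 2.5 kb around the gene, which is under 1.5-fold. Rpl35a, a gene mutated in Diamond-Blackfan anaemia, had 1634, 1692, 1517, 1988 and 974 bp (log2 -0.72).

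In other 60S members the total differed from E2 by less than 1.5-fold while the second kilobase held less H3K4me3. Rpl13a (chr7:45125563-45128745), which hosts 4 snoRNA genes, had 2368, 3005, 3104, 3272 and 1775 bp (log2 -0.41), and its second kilobase had 1000 bp covered in E2 and 5 bp at 120 h. Rpl35 and Rpl39 had 616 and 944 bp covered there in E2 and 0 and 8 bp at 120 h. Rpl27a (chr7:109519195-109522369) had 2447, 2654, 2525, 2772 and 1689 bp, a log2 ratio of -0.52, and 759 bp in the second kilobase in E2 against 110 bp at 120 h. Rpl38, known for its part in the translation of Hox messages, had 1314, 1314, 1727, 1836 and 1153 bp (log2 -0.18). Its second kilobase went from 554 bp in E2 to 312 bp at 120 h.

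Rpl5 and Rpl11, which with 5S RNA bind MDM2 and are mutated in Diamond-Blackfan anaemia, had ratios nearer 0. Rpl5 (chr5:107900508-107909005) had 1107 bp in E2, 1275, 1324 and 1389 bp in the restored lists (24, 40 and 72 h) and 1207 bp at 120 h, a log2 ratio of 0.12. Rpl11 (chr4:136049354-136053393) had 1339, 1584, 1581, 1787 and 1176 bp, a log2 ratio of -0.18. In the second kilobase both had fewer covered bases at 120 h than in E2, with 415 and 319 bp in Rpl5 and 542 and 278 bp in Rpl11. Those that were wider past 1.5-fold at 120 h were Rpl7, with a log2 ratio of 1.17, and Rpl19 (chr11:98022003-98030493), which had 826, 1061, 1325, 1537 and 1420 bp (log2 0.75). Counted over the gene alone, Rpl7 had a log2 ratio of 0.26. With only peaks at or above the median width Rpl19 had 0.36. Rpl36a and Rpl28 had log2 ratios of 0.53 and 0.42.

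The stalk proteins Rplp0, Rplp1 and Rplp2 recruit the GTPases of elongation. Rplp0 (chr5:115559467-115563729) had 1510 bp in E2, 1958, 1955 and 2250 bp in the restored lists (24, 40 and 72 h) and 1143 bp at 120 h (log2 -0.39). Rplp1 had 1648, 2329, 2050, 2248 and 1393 bp (log2 -0.23), and Rplp2 had 1141, 1853, 1260, 1613 and 1312 bp (log2 0.19). All 3 were longer at 72 h than in E2 and shorter at 120 h than at 72 h, and only Rplp2 was longer at 120 h than in E2.

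Among 40S members Rps4x, the X-linked copy of the RPS4 protein gene, had the lowest ratio of all members. It had 1994 bp in E2, 2584, 2450 and 2548 bp in the restored lists (24, 40 and 72 h) and 524 bp at 120 h (chrX:102184941-102189391), a log2 ratio of -1.83. The second kilobase downstream of the start shown above was covered in full in the first 4 lists and had 0 bp at 120 h, while the first kilobase went from 717 to 524 bp. Rps24 (chr14:24490678-24496960), mutated in Diamond-Blackfan anaemia, had 1977, 2182, 2996, 2368 and 895 bp (log2 -1.10). Rps15a was also narrower past 1.5-fold, with a log2 ratio of -0.67.

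Rps9 and Rps21 were the 40S members wider past 1.5-fold at 120 h. Rps9 (chr7:3703954-3706897) had 1809 bp in E2, 2493, 2373 and 3255 bp in the restored lists (24, 40 and 72 h) and 2976 bp at 120 h (log2 0.70). Its second kilobase had 767 bp covered in E2 and 1000 bp at both 72 h and 120 h. Rps21 (chr2:180257379-180258444), whose window also touches Cables2, had 940, 1539, 1615, 1673 and 1613 bp (log2 0.75), and a log2 ratio of 0.11 over the gene alone. Rps23 had 822, 1258, 1250, 1400 and 1085 bp.

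The 40S genes best known from human disease lay near 0. Rps19 (chr7:24884592-24889811), the gene most often mutated in Diamond-Blackfan anaemia, had 1488, 2157, 2358, 2372 and 1635 bp (log2 0.13). Rps14 (chr18:60774596-60778546), the gene whose loss underlies the anaemia of the 5q- syndrome, had 1582, 1973, 2141, 2147 and 1515 bp (log2 -0.06). Rpsa, also known as the laminin receptor, had 1472, 1584, 1960, 1835 and 1464 bp (log2 -0.01), and Rps27a, a fusion with ubiquitin, had 2241, 2336, 1980, 2643 and 2181 bp (log2 -0.04). In each of these 4 the 72 h list gave the longest or next to longest length, and the 120 h length lay close to that in E2.

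Other genes of translation lay between the members and all genes at 120 h. At 120 h the median log2 ratio over E2 was 0.15 for 78 mitochondrial ribosomal protein genes (19 wider, 1 narrower), 0.18 for 36 translation factors (6 wider, 0 narrower) and 0.08 for 42 genes of ribosome biogenesis (5 wider, 3 narrower), all below the 0.59 of all genes and above the members' -0.09. Over all genes 50.5% were wider and 2.29% narrower at 120 h. From 72 h to 120 h the medians were -0.20, -0.31 and -0.48, against -0.45 for the members. In the second kilobase the biogenesis genes with 1 start (33) had means of 239 bp in E2 and 39.4 bp at 120 h, with 21 shorter and 2 longer. The translation factors (26) had 406 and 272 bp, with 16 shorter and 5 longer. The mitochondrial ribosomal protein genes (66) had 45.9 and 17.2 bp, with 11 shorter and 2 longer. Over all genes with 1 start and a peak near it, 22.2% were shorter and 25.2% longer.

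Ribosomal protein genes that the naming rule leaves out included 1 that was narrower past 1.5-fold. Rps3a1, a 40S protein gene, had 2234 bp in E2, 2231, 2193 and 2370 bp in the restored lists (24, 40 and 72 h) and 922 bp at 120 h (log2 -1.23). Fau, whose product is fused to a ubiquitin-like sequence, went from 1912 to 1785 bp between E2 and the 120 h list, and Rack1 from 2340 to 2099 bp. The paralogs Rpl39l and Rpl10l, known for expression in the testis, were at 0 in all 5 lists. Rpl3l, a paralog of muscle, went from 410 bp in E2 to 1211 bp at 120 h (log2 1.45). Over the 9 marked genes of these 11 the median log2 ratio at 120 h was -0.04.

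**Figure D4:**
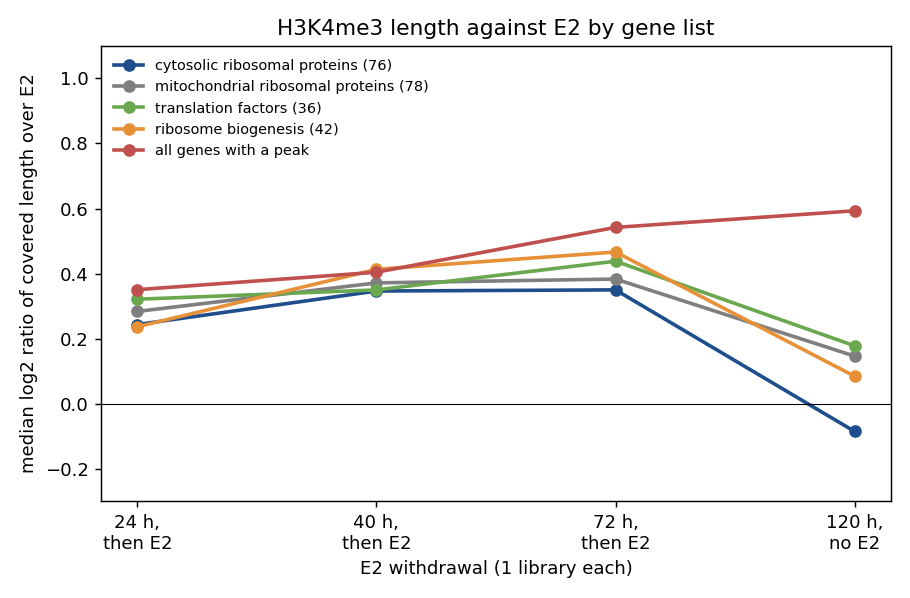
Median log2 ratio of H3K4me3-covered length over E2 in each later list (1 library each), for the 76 cytosolic ribosomal protein genes, 78 mitochondrial ribosomal protein genes, 36 translation factors, 42 ribosome biogenesis genes and all genes with a peak. At 120 h the medians are -0.09, 0.15, 0.18, 0.08 and 0.59.

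The share of ribosomal protein genes with a V5-Hoxa9-AM V5 site nearby was close to that of other marked genes of like length, and the share with an AM site was lower. Neither difference was tested. In cells with V5-Hoxa9-AM, 31 of 76 members (40.8%) had 1 or more of the 17006 V5 sites within 10 kb of the gene, against 33.4% of all genes. The share was 38.5% among the 2882 genes that had H3K4me3 in E2 and were no longer than the longest member. AM sites (6773) were found near 8 members (10.5%), against 19% of all genes and 21.7% of those 2882 genes. In cells with V5-ER-Hoxa9-AM, 0 members had a V5 site in E2 (all genes 3.9%), 0 a V5 site after 72 h and return to E2 (1.19%) and 0 an AM site in E2 (0.73%). These lists were short, with 1417, 387 and 258 sites, and the genes of like length had shares of 2.15%, 0.555% and 0.278%.

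V5 sites at members were narrow, and 11 of the 48 members with 1 start had a site on that start. The 40 V5 sites near members were 187 to 559 bp wide, 12 overlapped H3K4me3 in E2 and 25 did at 120 h. The same overlap was not counted over all V5 sites, and the H3K4me3 lists covered 10.4 Mb in E2 and 17.3 Mb at 120 h. A V5 site covered the annotated start in 11 of the 48 members with 1 start (22.9%), against 4.42% of all genes with 1 start and 8.60% of those with H3K4me3 in E2. The 11 were Rpl5, Rpl9, Rpl18, Rpl26, Rpl27, Rpl37, Rpl41, Rps6, Rps7, Rps9 and Rps15. An AM site covered the start in 2 of the 48 members (4.17%), Rpl5 and Rpl9, against 2.22% of all genes and 4.43% of those with H3K4me3 in E2. The sites at Rpl27, Rpl41 and Rps15 overlapped no H3K4me3 peak in E2 or at 120 h.

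The V5 and AM lists gave the same interval at 5 members. Of the 8 AM sites near members, 5 had the exact coordinates of a V5 site, and the widest site was 2644 bp in both lists. Whether the lists were called separately is not given, so a shared interval cannot be counted as independent evidence for a site. At Rpl5 the shared interval was chr5:107900438-107900956 (519 bp), which holds the whole promoter stretch shown above. Of it, 121 bp overlapped H3K4me3 in E2 and 317 bp at 120 h. At Rpl9 it was chr5:65391267-65391605 (339 bp), touching both Rpl9 and Lias, which encodes lipoic acid synthetase. At Rps26 the interval chr10:128626562-128627076 (515 bp) lay 56 bp outside the gene. At Rps12 chr10:23788332-23788651 lay 949 bp outside, and at Rpl36a chrX:134577847-134578405 lay 7249 bp away within Btk, a kinase gene of the B cell and myeloid lineages. Rpl19 and Rpsa had AM sites inside the gene with no V5 site within 10 kb, of 634 bp (chr11:98026818-98027451) and 303 bp (chr9:120127922-120128224). Rpl14 had both, with different intervals. The V5 site near Rps19 (190 bp) lay 312 bp outside the gene and that near Rps14 (296 bp) 99 bp outside.

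**Figure D5:**
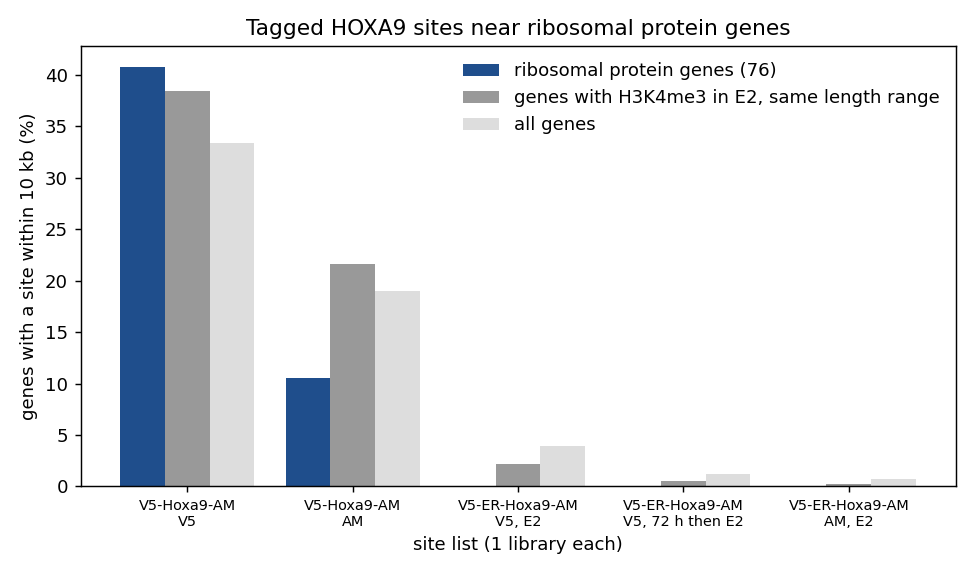
Share of genes (%) with a site of tagged HOXA9 within 10 kb in each of the 5 V5 and AM lists (1 library each), for the 76 ribosomal protein genes, for genes with H3K4me3 in E2 in the same length range and for all genes. The members reach 40.8% for V5 and 10.5% for AM in V5-Hoxa9-AM cells and are at 0 in the 3 V5-ER-Hoxa9-AM lists.

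Members with and without a V5 site nearby had overlapping H3K4me3 ratios at 120 h. The median log2 ratio at 120 h over E2 was -0.03 in the 31 members with a V5 site within 10 kb (quartiles -0.25 and 0.14) and -0.11 in the 45 without (quartiles -0.41 and 0.20). Shorter at 120 h than in E2 were 16 of the 31 and 31 of the 45. The sites come from cells with another construct than those of the H3K4me3 lists.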

How the data were processed

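The deposited files are peak lists with chromosome, start and end coordinates and no score, height or p-value. Their unit was therefore taken as other: coordinates, as the authors deposited them. Bowtie2 2.0, BWA, MACS2 2.0 and the builds mm9 and mm10 are named, with no role, per the submitters' processing notes. Which of them made which list, the calling threshold, the read depth and the use of inputs are not given in the sources used here. In the E2 H3K4me3 list 69.3% of peaks were no further than 1 kb from an end of a gene in the GRCm38.p6 table, and 9.33% after a shift of 100 kb, so the H3K4me3, V5 and AM lists were treated as mm10. The 3 V5-ER-Hoxa9-AM lists gave no such contrast of their own. The 11 H3K27ac and H3K27me3 lists, taken as mm9, were not used here.

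Starts were read as 0-based. Peaks on chromosomes 1 to 19 and X were merged where they overlapped and clipped to the gene with 1 kb on either side. Log2 ratios were taken after adding a pseudocount of 50 bp to both lengths, and wider or narrower means past 1.5-fold. All genes were treated in the same way as the members, in Python 3.11.15 with numpy 2.4.6, pandas 2.3.3 and scipy 1.17.1. The functions were tested on simulated peaks. Zones around starts used genes with 1 start in the RefSeq promoter table, and 41 of the 48 members' starts equalled the gene's end in the gene table.

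Members named are those with the most and fewest bases in E2, the highest and lowest ratios at 120 h and 72 h, those with V5 or AM sites (up to 12), and a fixed set (Rplp0, Rplp1, Rplp2, Rpsa, Rpl5, Rpl11, Rpl38, Rps14, Rps19, Rps27a). A member that this rule names is not reported here. Others, such as Rpl13a, Rpl15, Rpl35, Rpl35a, Rpl37, Rpl39, Rpl41, Rps3, Rps6, Rps7, Rps15, Rps20 and Rps29, were chosen after their values were seen. So were the comparison with 72 h, the zones around the start, the pyrimidine runs, the genes of like E2 length, the V5 sites over starts and the promoters printed. The members and all lists were chosen with earlier results of these data known. Alternatives tried were other windows, pseudocounts and folds, centring, merged peaks, wide peaks, equal numbers of peaks and members with no neighbour.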

Additional observations from a re-analysis of the deposited data

How the results depend on the processing

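Of the recomputed counts and medians, 134 kept their direction and size, 36 moved and 1 reversed. Counts were recomputed for the members alone, and shares of all genes under each setting were not computed. The counts below therefore show only how the member counts shift with the setting. The members had no replicate, so depth, threshold and library cannot be separated from condition, and widths set by the caller limit every length. No paired analysis was possible because each condition had 1 library. In the 47 members with no other coding gene in the window, 47 were marked in each list, 5, 9, 10 and 2 were wider at 24, 40, 72 and 120 h, and 26 of 28 had fewer covered bases in the second kilobase at 120 h (chosen after seeing the data). Over the gene alone, 5, 8 and 2 members were wider at 24, 40 and 120 h, 16 were narrower at 120 h and the 120 h median log2 ratio was -0.27. With a fold of 2, 1 member was wider in each list and 4 were narrower at 120 h. Centred on all genes, 1, 1, 1 and 0 were wider at 24, 40, 72 and 120 h, and 47 narrower at 120 h. Merging peaks within 1 kb gave 10 wider at 40 h and a 72 h median of 0.27. Equal numbers of peaks (17497) gave 14 narrower at 120 h. Peaks at or above the median width gave 19 narrower, a median of -0.22, a difference from all genes of -0.87 (main value -0.68) and a median percentile of 41.9 at 120 h. Against genes of like E2 length (chosen after seeing the data) the members' median differed by -0.30 at 120 h, and by 0.032 at 72 h, where the sign turned from -0.19. Wide sites were near 10 members for V5 and 4 for AM, and AM sites within 25 kb were near 18. Among named members Rps21 lost its call with merged peaks (0.14), Rplp0 (-1.15), Rpl29 (-0.81) and Rpl27a (-1.09) were narrower past 1.5-fold with wide peaks only, and Rpl28 (0.60) was wider with merged peaks. The cause was not tested.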

Other observations

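Members grouped by other features had like medians at 120 h. The 29 members with a snoRNA gene inside had a median log2 ratio over E2 of -0.09 (quartiles -0.29 and 0.05) and the 47 without had -0.08 (quartiles -0.32 and 0.21). The 14 members on chromosome 7 had a median of -0.15 and the other 62 had -0.08. Among genes that make ribosomes, Nop58, a core protein of box C/D snoRNA particles, had 2428 bp in E2, 3093 bp at 72 h and 1250 bp at 120 h (log2 -0.93), and Nop10, of the box H/ACA particles, had 1197, 1576 and 668 bp (log2 -0.80). Ubtf, the RNA polymerase I factor UBF, had 2026, 4432 and 4265 bp (log2 1.06), and Rrn3, which brings RNA polymerase I to its promoter, had 531, 1152 and 1133 bp (log2 1.03). These 4 were the outermost of the 42 biogenesis genes at 120 h, lowest and highest.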
